A study of Homo sapiens with 12 samples.

Results

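The genes described here are 38 genes of glycolysis and of the cellular response to low oxygen, listed by gene name. They fell into 3 roles: 16 glycolytic enzymes, 8 regulators and transporters of glycolysis, and 14 other targets of the hypoxia-inducible factors (HIF). Of the 38 genes, 36 had a probe with a gene name, out of 20046 named genes in the series; CA9 and SLC16A3 had none in the probe annotation used and were not analysed here. Expression was measured on Illumina HumanHT-12 bead arrays, 1 array per sample, with 12 arrays in all.

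The groups were H9 cells (2 arrays), an established human embryonic stem cell (hESC) line labelled MEG3-OFF, MEG3-OFF sublines of the NTU1 hESC line (5 arrays, replicates 5 to 9), 1 embryoid body (EB) labelled MEG3-ON, and MEG3-ON sublines of NTU1 (4 arrays, replicates 1 to 4). MEG3 is a maternally expressed noncoding RNA of the imprinted DLK1-DIO3 locus, and a subline's state was set in the study from quantitative PCR of MEG3 itself. An EB is an aggregate of hESC that differentiates in suspension; its day of differentiation and the passage of each subline are not given in the labels. All hESC were grown on mouse embryonic fibroblast feeders in serum-free medium, and no group was treated or kept at a set oxygen level according to the labels. The labels give the MEG3-ON sublines a better, and the MEG3-OFF sublines a worse, capacity for neural differentiation. Nothing in the sources says that the sublines were cultured independently, so the p-values reflect the spread among these arrays alone, which may be technical.

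Glycolysis splits glucose into pyruvate in the cytosol, and lactate dehydrogenase turns pyruvate into lactate. Human embryonic stem cells are known for a high glycolytic rate. Under low oxygen the prolyl hydroxylases of the EGLN family lose activity, the HIF alpha subunits escape degradation, pair with ARNT and bind DNA at hypoxia response elements. Many glycolysis genes are HIF targets, as are genes of blood vessel growth, mitophagy, collagen hydroxylation and growth control. HIF protein is set mainly by its stability, which an expression array does not measure.

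To show the letters to which HIF binds, promoter windows of 300 bases (250 before and 50 after the start site) were taken from RefSeq on GRCh38.p14 and searched for the cores ACGTG and GCGTG on both strands, read as CACGT and CACGC on the opposite strand. The palindrome CACGTG, which other factors also bind, counts once on each strand. Windows were found for 33 of the 38 genes, and 30 of these held a match in at least 1 window. A gene with several windows has more chances of a match. The share by gene was not taken over all genes, so this count has no background. By window, 42 of 62 held a match (67.7%), against 48.4% of all 35114 windows. The share was 78.6% of 14 windows of other HIF targets, 75% of 12 windows of regulators and transporters, and 61.1% of 36 windows of glycolytic enzymes. Genes with many windows weigh more in these shares. Among the enzymes HK1 and PFKM had 7 windows each, 2 of each with a match. Among the regulators and transporters SLC16A3 had 5, 3 of them with a match. The 4 windows below belong to ANKRD37, PFKFB4 and LDHA, whose levels varied between arrays, and to GAPDH, whose level was steady. They lie at chr4:185396591-185396890 (plus strand), chr3:48556754-48557053 (minus strand), chr11:18394313-18394612 (plus strand, the outermost start site of LDHA) and chr12:6535014-6535313 (plus strand), and capitals mark the matches.
ANKRD37: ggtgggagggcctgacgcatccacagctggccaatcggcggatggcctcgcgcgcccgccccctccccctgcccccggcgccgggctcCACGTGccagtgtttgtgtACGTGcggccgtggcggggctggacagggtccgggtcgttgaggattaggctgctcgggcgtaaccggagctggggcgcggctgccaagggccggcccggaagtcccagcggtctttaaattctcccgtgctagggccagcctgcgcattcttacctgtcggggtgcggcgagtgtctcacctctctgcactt
PFKFB4: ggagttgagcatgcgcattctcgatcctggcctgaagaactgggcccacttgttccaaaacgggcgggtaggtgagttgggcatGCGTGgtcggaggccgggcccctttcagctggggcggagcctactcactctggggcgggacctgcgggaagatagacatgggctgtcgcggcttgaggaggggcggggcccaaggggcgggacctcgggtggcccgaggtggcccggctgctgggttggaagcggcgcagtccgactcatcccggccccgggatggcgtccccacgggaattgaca
LDHA: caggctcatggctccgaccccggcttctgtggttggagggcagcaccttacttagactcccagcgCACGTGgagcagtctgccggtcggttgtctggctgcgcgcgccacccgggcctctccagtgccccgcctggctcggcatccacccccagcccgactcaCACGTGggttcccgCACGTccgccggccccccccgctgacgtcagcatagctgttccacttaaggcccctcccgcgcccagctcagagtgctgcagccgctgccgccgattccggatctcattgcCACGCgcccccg
GAPDH: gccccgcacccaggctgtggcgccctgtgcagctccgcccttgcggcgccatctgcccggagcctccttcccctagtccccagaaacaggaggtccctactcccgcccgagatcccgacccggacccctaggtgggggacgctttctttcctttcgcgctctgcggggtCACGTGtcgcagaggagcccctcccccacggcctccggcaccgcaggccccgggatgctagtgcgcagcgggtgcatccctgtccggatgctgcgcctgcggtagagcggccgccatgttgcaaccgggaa
ANKRD37 held 3 matches, PFKFB4 1, LDHA 6 and GAPDH 2. The window of the steady gene GAPDH thus held matches too, and a match is a description of the sequence and no evidence of binding.

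Levels are log2 normalized signals of 1 probe per gene, and a gene was called detected where the probe's detection p was under 0.01. Between 16864 and 18796 probes were detected per array, the median signal per array was 83.6 to 108, and the number of arrays limits the precision. MEG3 was at 5.38 ± 0.54 in MEG3-OFF (SD, n = 5, detected on 1 array) and 13.84 ± 0.46 in MEG3-ON (n = 4), was not detected in H9, and was at 13.76 in the EB; the sorting used MEG3, so this only checks the labels. Of 10 pluripotent stem cell markers 9 had a probe. All 9 were detected on each hESC array, with a mean level of 12.09 to 12.66, and 8 in the EB, with a mean of 9.78. The mean hides NANOG, at 7.94 and 7.60 in H9, 10.75 ± 0.23 in MEG3-OFF and 9.98 ± 0.30 in MEG3-ON. Of the 9, only NANOG passed as higher in MEG3-OFF than in MEG3-ON, against 1.85% of all genes, and 0 as lower. NANOG and LIN28A passed as lower in H9 than in MEG3-OFF, against 18.2% of all genes, and 0 as higher. Fibroblast and stromal markers had a mean of 7.76 to 8.05 over the hESC arrays and 9.55 in the EB, and neural markers were at 6.86 to 6.99 in H9, 7.08 to 7.17 in MEG3-OFF, 9.21 in the EB and 7.50 to 7.64 in MEG3-ON. Mesoderm and endoderm markers averaged 4.96 to 6.01 on the hESC arrays and 6.39 in the EB, and blood and endothelial markers 4.80 to 5.30 on all arrays. Of 6 neural markers tested, 2 passed as lower in MEG3-OFF than in MEG3-ON, against 1.74% of all genes. These were PAX6 and MAP2, detected on 4 MEG3-ON and 0 MEG3-OFF arrays. They entered the test only through MEG3-ON, where they were high. The part of other cell types in the results below was not tested, and in such bulk samples fewer cells of a type and less RNA per cell cannot be told apart. The 12 arrays were on 1 chip with each group in adjoining positions, so chip position and group cannot be told apart.

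Of the 36 genes with a probe, 33 were detected often enough to be tested among the hESC. PDK1, the kinase that shuts pyruvate dehydrogenase under low oxygen, was detected on 0 of 12 arrays, with levels of 4.78 to 5.25. PFKFB2, an isoform of the bifunctional enzyme that sets the level of a phosphofructokinase activator, was detected on 1 array, MEG3-ON 4, at 6.04. MXI1, a MYC antagonist, was detected in the EB only, at 6.28. For these 3 genes no test was made, and signals below background give only a bound on the level.

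MEG3-OFF sublines were first compared with MEG3-ON sublines to ask whether the glycolysis and hypoxia genes differ with the state of MEG3. Of the 33 genes tested, 2 passed the threshold: HK1 was higher and PFKFB4 lower in MEG3-OFF. This is 6.06% of these genes, against 3.58% of all 10775 genes tested (1.85% higher and 1.74% lower; limma with Benjamini-Hochberg adjustment over all genes, adjusted p under 0.05), so the share was near the background at this number of genes. HK1 and NDRG1 were the 2 genes of the 33 whose values stood fully apart between the groups, both higher in MEG3-OFF; 8.25% of all genes stood apart, 4.56% higher and 3.69% lower. The difference was below 0 for 21 of the 33 genes, against 47.3% of all genes. Glycolytic enzymes had a median difference of 0.00 on the log2 scale, regulators and transporters of -0.21 and other HIF targets of -0.26, beside 0.02 for all genes tested.

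HK1, the constitutive hexokinase that phosphorylates glucose in the first step, was at 13.64, 13.50, 13.37, 13.29 and 13.75 in MEG3-OFF 5 to 9, against 13.03, 13.09, 13.13 and 12.88 in MEG3-ON 1 to 4. Every MEG3-OFF array lay above every MEG3-ON array. The means were 13.51 in MEG3-OFF and 13.03 in MEG3-ON, a log2 difference of 0.48 ± 0.12 (SE) or 1.39-fold (limma, adjusted p = 0.0481). A second HK1 probe detected on all 12 arrays was 0.43 higher in MEG3-OFF. The call stood close to the threshold. It was lost without any one of MEG3-ON 1 to 4 or MEG3-OFF 6, 7 or 9, and the adjusted p ranged from 0.0126 to 0.15 over the alternatives.

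HK2, the inducible hexokinase bound to mitochondria and a HIF target, had a lower mean in MEG3-OFF. It was at 10.30, 8.83, 8.48, 9.34 and 8.86 in MEG3-OFF 5 to 9, against 9.76, 10.18, 9.20 and 10.65 in MEG3-ON 1 to 4. MEG3-OFF 5 lay among the MEG3-ON arrays, 3 of the other MEG3-OFF arrays lay below all of them, and the difference of -0.79 ± 0.34 did not pass (limma, adjusted p = 0.204). A second probe detected on all 12 arrays differed by -0.38. Leaving out 1 array gave -1.07 without MEG3-OFF 5, which passed (adjusted p = 0.033), and -0.55 without MEG3-ON 4 (adjusted p = 0.463); without MEG3-OFF 5 the calls among all genes numbered 997, against 386.

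LDHA, the lactate dehydrogenase subunit induced by HIF, was at 13.92, 13.16, 12.88, 13.39 and 12.73 in MEG3-OFF 5 to 9, against 13.95, 13.91, 13.36 and 14.45 in MEG3-ON 1 to 4. Again MEG3-OFF 5 stood with the MEG3-ON arrays, while MEG3-ON 3 stood with the MEG3-OFF arrays. The difference was -0.70 ± 0.24 (limma, adjusted p = 0.124), with a second probe detected on all arrays at -0.71; it was -0.87 without MEG3-OFF 5, which passed (adjusted p = 0.0283), and -0.52 without MEG3-ON 4 (adjusted p = 0.325). LDHB, the subunit more common in oxidative tissue, was at 13.21 to 13.44 in MEG3-OFF and 13.36 to 13.62 in MEG3-ON, a difference of -0.15 ± 0.10.

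The other enzymes stood close together in both groups. GAPDH, the dehydrogenase in the middle of the pathway, was at 14.67, 14.79, 14.68, 14.48 and 14.56 in MEG3-OFF, against 14.68, 14.63, 14.61 and 14.63 in MEG3-ON, a difference of 0.00 with a 95% confidence interval of -0.22 to 0.22. PKM, pyruvate kinase, was at 10.69 to 10.88 in MEG3-OFF and 10.61 to 11.07 in MEG3-ON, a difference of 0.00 with an interval of -0.25 to 0.25. The isomerase GPI, the phosphofructokinases PFKL, PFKM and PFKP, the aldolases ALDOA and ALDOC, TPI1, PGAM1 and ENO1 differed by -0.09 to 0.24, and no call was made for any of them; GPI, at -0.07, came to 0.00 with arrays scaled to equal medians. ENO2, an enolase isoform common in neurons, was 0.39 lower in the mean of MEG3-OFF (-0.39 ± 0.20, adjusted p = 0.253).

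Among the regulators, PFKFB4, an isoform that makes the phosphofructokinase activator and is induced by HIF, was at 9.91, 9.80, 9.66, 10.21 and 9.56 in MEG3-OFF 5 to 9, against 10.65, 10.59, 10.17 and 11.12 in MEG3-ON 1 to 4. The groups met at MEG3-OFF 8 and MEG3-ON 3 and were otherwise apart. The means of 9.83 in MEG3-OFF and 10.63 in MEG3-ON differed by -0.80 ± 0.18, or 1.75-fold (limma, adjusted p = 0.0304). The call was kept without MEG3-ON 3, MEG3-OFF 5 or MEG3-OFF 8 and lost without any one of the other 6 arrays, and the adjusted p ranged from 0.0138 to 0.195 over the alternatives.

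PFKFB3, the isoform with the strongest kinase activity, was at 10.38, 9.73, 10.19, 10.38 and 9.74 in MEG3-OFF, against 10.60, 11.01, 10.29 and 11.30 in MEG3-ON. All but MEG3-ON 3 lay above the MEG3-OFF arrays, and the difference of -0.72 ± 0.21 missed the threshold (limma, adjusted p = 0.0746). A second probe detected on all 12 arrays differed by -0.31. Leaving out MEG3-ON 3 gave -0.89 (adjusted p = 0.0389), leaving out MEG3-OFF 5 gave -0.79 (adjusted p = 0.0439) and leaving out MEG3-ON 4 gave -0.55 (adjusted p = 0.211). SLC2A1, the glucose transporter GLUT1, was at 11.47 to 12.04 in MEG3-OFF and 11.50 to 12.14 in MEG3-ON, a difference of -0.21 ± 0.16. SLC2A3, the high-affinity transporter GLUT3, was at 14.05 to 14.32 in MEG3-OFF and 14.06 to 14.21 in MEG3-ON (0.11 ± 0.10), and PDK3, a pyruvate dehydrogenase kinase isoform detected on all 12 arrays, differed by -0.11 ± 0.16 and by 0.01 on a second such probe.

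Of the 12 other HIF targets tested, 0 passed the threshold by limma, while at an unadjusted p under 0.05 NDRG1 and VEGFA had a higher and ANKRD37 and P4HA1 a lower mean in MEG3-OFF (22.3% of all genes had such a p, 11.3% higher and 11% lower). ANKRD37, an ankyrin repeat protein gene and a direct HIF target, was at 6.50, 6.63, 6.64, 7.62 and 6.45 in MEG3-OFF 5 to 9, against 8.05, 7.13, 7.00 and 8.53 in MEG3-ON 1 to 4. MEG3-OFF 8 was the only MEG3-OFF array among those of MEG3-ON; the difference was -0.91 ± 0.31 (adjusted p = 0.118), and it was -1.12 without that array, which passed (adjusted p = 0.0481), and -0.62 without MEG3-ON 4 (adjusted p = 0.315). P4HA1, a subunit of the prolyl hydroxylase of collagen, was at 7.99, 8.28, 8.01, 8.20 and 7.34 in MEG3-OFF, against 8.50, 8.46, 7.86 and 9.54 in MEG3-ON (-0.62 ± 0.28, adjusted p = 0.213; -0.31 without MEG3-ON 4).

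Other targets stood higher in the mean of MEG3-OFF. ADM, the vasodilator peptide adrenomedullin, was at 14.07, 13.86, 14.25, 13.13 and 13.28 in MEG3-OFF, against 13.30, 13.78, 11.72 and 13.35 in MEG3-ON, where MEG3-ON 3 was far below the rest (0.68 ± 0.36, adjusted p = 0.279; 0.24 without MEG3-ON 3). The mean of the 9 mesoderm and endoderm markers was 6.01, 5.46, 5.74, 5.07 and 5.18 on MEG3-OFF 5 to 9. On MEG3-ON 1 to 4 it was 5.37, 6.01, 4.96 and 5.18, also lowest on MEG3-ON 3. Only 1 to 4 of the 9 markers were detected per array in either group, and 1 on MEG3-ON 3, so most were below background. The part of these markers in the ADM values was not tested. NDRG1, a stress-response gene induced by hypoxia, was at 6.76, 6.48, 6.67, 6.56 and 6.54 in MEG3-OFF, against 5.98, 6.48, 5.42 and 6.41 in MEG3-ON. Its groups did not overlap, though by less than 0.01 at the nearest pair of arrays, MEG3-ON 3 was below background, and the difference of 0.53 ± 0.19 did not pass (adjusted p = 0.126; 0.31 without MEG3-ON 3). VEGFA, the growth factor of blood vessels, was at 7.28 to 7.66 in MEG3-OFF and 6.79 to 7.33 in MEG3-ON (0.31 ± 0.13, adjusted p = 0.194; 0.19 without MEG3-ON 1).

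DDIT4, an inhibitor of mTORC1 signalling, was at 10.92 to 12.49 in MEG3-OFF and 11.30 to 12.72 in MEG3-ON (-0.28 ± 0.32, adjusted p = 0.628; 0.03 without MEG3-ON 4). EGLN3, the prolyl hydroxylase most strongly induced by HIF, was at 7.56 to 8.13 in MEG3-OFF and 7.70 to 8.39 in MEG3-ON (-0.20 ± 0.16). The mitophagy receptors BNIP3 and BNIP3L, the hydroxylases EGLN1 and P4HA2 and the histone demethylase KDM3A had differences of -0.35 to -0.06, and no call was made for any of them. With arrays scaled to equal medians BNIP3, at -0.06, came to 0.03.

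**Figure D1:**
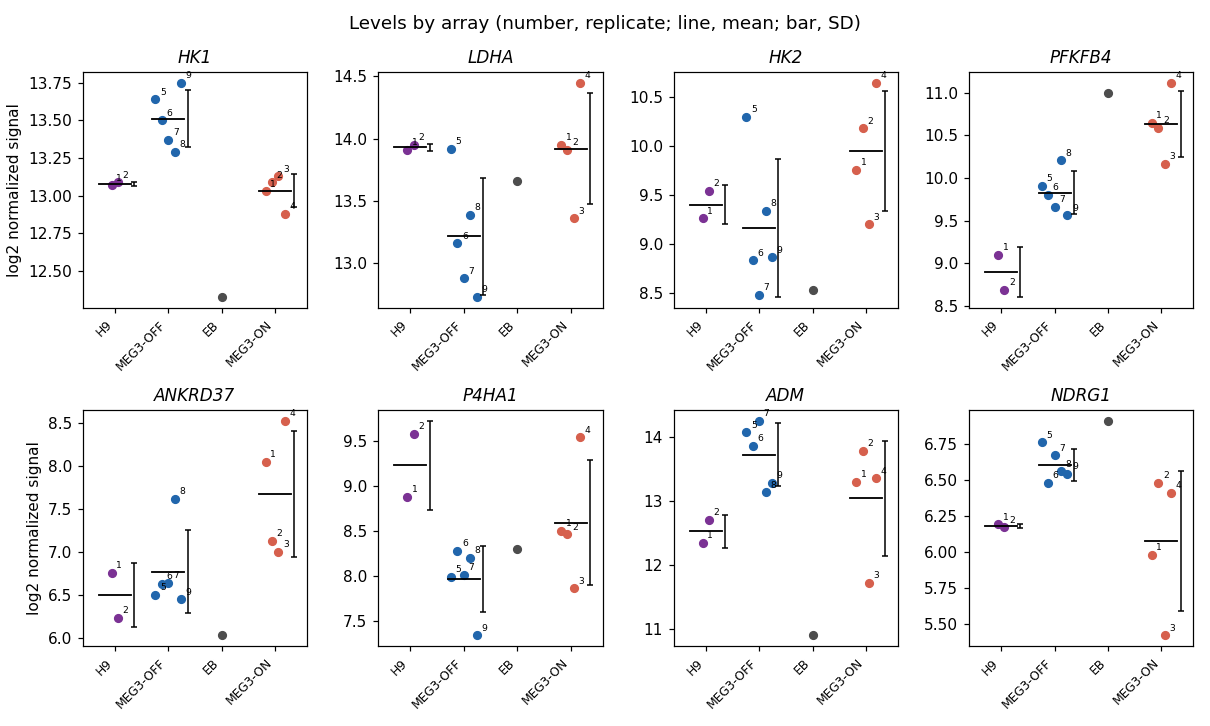
Levels (log2 normalized signal) of 8 genes by array, each point 1 array with its replicate number, lines the group means and bars the SD. HK1 stood higher in MEG3-OFF with no overlap, PFKFB4 lower, and MEG3-ON 4 and MEG3-ON 3 lay at opposite ends of the MEG3-ON group for LDHA, HK2, PFKFB4, ANKRD37 and P4HA1.

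The spread between arrays was also read by role. The 12 other HIF targets had a median SD of 0.53 across the 4 MEG3-ON arrays, beside 0.14 for the 16 glycolytic enzymes and 0.18 for all 10775 genes tested, and each of the 12 exceeded the median of all genes. Across the 5 MEG3-OFF arrays the median SD was 0.27 for other HIF targets, 0.13 for glycolytic enzymes and 0.20 for all genes. These values describe these arrays, with no test. Under other scalings, background settings or probe choices the MEG3-ON median was 0.38 to 0.60 for other HIF targets. It was 0.14 to 0.17 for glycolytic enzymes and 0.14 to 0.19 for all genes. Without background correction, enzymes and all genes were both at 0.14.

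MEG3-ON 4 was the highest of the 4 MEG3-ON arrays for 10 of 12 other HIF targets (83.3%, against 25.6% of all genes), and MEG3-ON 3 was the lowest for 10 of 12 (83.3%, against 23.7% of all genes). Set against the mean of the other 3 MEG3-ON arrays, MEG3-ON 4 was higher for 12 of 12 other HIF targets, with a median of 0.69, and MEG3-ON 3 was higher for 1 of 12, with a median of -0.84. The exception was VEGFA, which was 0.15 higher on MEG3-ON 3. P4HA1 stood 1.27, DDIT4 1.25 and ANKRD37 1.14 above the other MEG3-ON arrays on MEG3-ON 4. On MEG3-ON 3, ADM was at -1.76, P4HA1 at -0.97 and BNIP3 at -0.92 relative to the other MEG3-ON arrays.

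Some glycolysis genes stood in the same order. On MEG3-ON 4, HK2 was 0.94, LDHA 0.71, PFKFB3 0.66, PFKFB4 0.65, PDK3 0.54 and ENO2 0.51 above the other MEG3-ON arrays. On MEG3-ON 3, HK2 was at -0.99, LDHA at -0.74, PFKFB3 at -0.68, PFKFB4 at -0.61 and SLC2A1 at -0.54 relative to them. The 16 enzymes as a role had medians of 0.17 on MEG3-ON 4 and -0.02 on MEG3-ON 3, and GAPDH stood at -0.02 and -0.04. Over all 33 genes, MEG3-ON 4 was above the mean of the other MEG3-ON arrays for 30 (90.9%, against 46.9% of all genes) and MEG3-ON 3 for 8 (24.2%, against 56.2% of all genes).

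The number of detected probes moved with this order: it was 18390 on MEG3-ON 4 and 16864 on MEG3-ON 3, the highest and the lowest among the hESC arrays. Median signals were 104 and 102 on these arrays, and the pluripotent marker means were 12.29 and 12.33. Fibroblast and stromal markers averaged 7.86 on MEG3-ON 4 and 7.83 on MEG3-ON 3, each with 6 of 10 detected. Among the MEG3-OFF arrays, MEG3-OFF 9 had the most detected probes, 17727. It was the lowest of them for 6 of 12 other HIF targets (50%, against 16.5% of all genes). The part of these measures in the order was not tested, and the labels give no difference in culture between the sublines.

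The role means put the same values side by side. Each value is the mean over a role's genes of the level minus that gene's mean over the 11 undifferentiated arrays. Other HIF targets stood at 0.18, 0.06, -0.42 and 0.68 on MEG3-ON 1 to 4, and glycolytic enzymes at 0.03, 0.03, -0.01 and 0.25. Enzymes minus other HIF targets was therefore 0.41 on MEG3-ON 3 and -0.43 on MEG3-ON 4. On MEG3-OFF 5 to 9 this difference was 0.22, -0.07, -0.08, -0.09 and 0.20, a narrower range that lay within that of MEG3-ON. It averaged 0.03 ± 0.16 in MEG3-OFF (SD, n = 5) and -0.05 ± 0.35 in MEG3-ON (SD, n = 4), and the means differed by less than either SD.

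MEG3-OFF 5 was the highest MEG3-OFF array for 11 of 16 glycolytic enzymes (68.8%, against 24.1% of all genes), HK2 and LDHA among them. MEG3-OFF 9 was the lowest for 6 of 12 other HIF targets (50%, against 16.5% of all genes). ANKRD37 and DDIT4 were highest on MEG3-OFF 8, at 7.62 and 12.49.

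**Figure D2:**
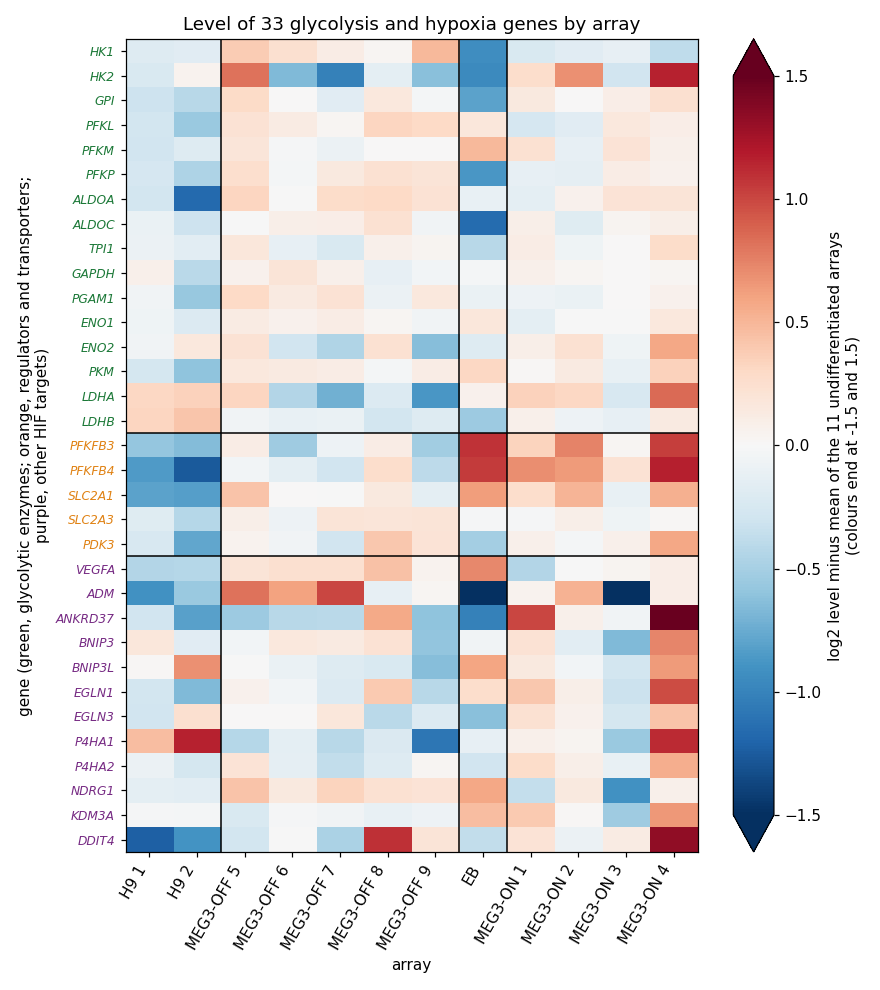
Log2 level of each of 33 genes minus its mean over the 11 undifferentiated arrays, with genes down the page by role and arrays across by group. MEG3-ON 4 is red for nearly all HIF targets and for HK2, LDHA, PFKFB3 and PFKFB4, and MEG3-ON 3 is blue for most of these.

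**Figure D3:**
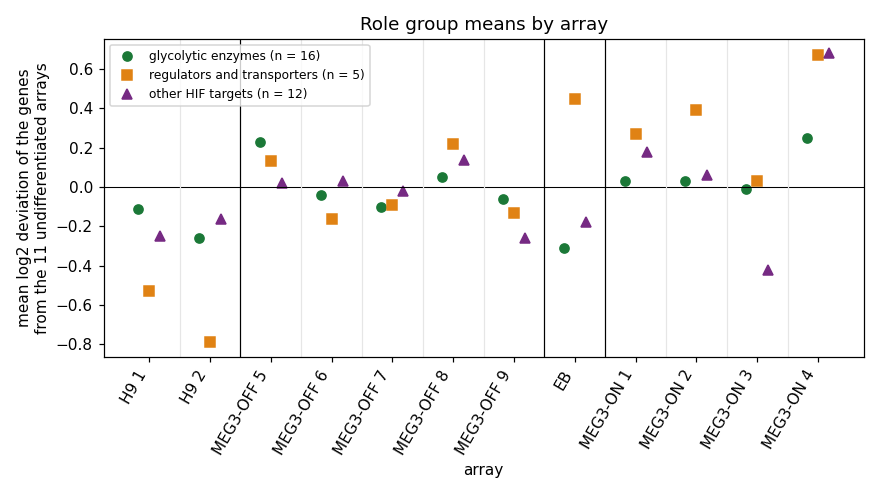
Mean log2 deviation of the genes of each role on each array, each point the mean over 16, 5 or 12 genes. Other HIF targets span -0.42 to 0.68 within MEG3-ON while glycolytic enzymes span -0.01 to 0.25, and regulators and transporters are lowest in H9 at -0.53 and -0.79.

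Lists of related genes outside the 38 were read in the same way for MEG3-OFF against MEG3-ON. Of all genes, 22.3% had an unadjusted p under 0.05 by limma, 11.3% higher and 11% lower. After adjustment 1.85% of all genes passed as higher and 1.74% as lower. Of 12 further glycolysis genes tested 0 passed by limma, with 1 higher and 2 lower at an unadjusted p under 0.05; PGK1, the first enzyme of the pathway to yield ATP, was at 12.15 ± 0.44 in MEG3-OFF and 12.63 ± 0.27 in MEG3-ON (-0.47 ± 0.21, adjusted p = 0.204). Of 11 genes of the HIF pathway, 0 passed, with 0 higher and 4 lower at an unadjusted p under 0.05; HIF1A, the oxygen-regulated subunit, was at 9.54 ± 0.33 in MEG3-OFF and 9.49 ± 0.13 in MEG3-ON. Of 23 further HIF targets, 1 passed: HMOX1, heme oxygenase 1, also a target of oxidative stress, was higher at 7.94 ± 0.26 in MEG3-OFF and 7.17 ± 0.23 in MEG3-ON (0.77 ± 0.15, adjusted p = 0.0158). Of 22 genes of pyruvate dehydrogenase and the citric acid cycle 0 passed, with 2 higher and 0 lower at an unadjusted p under 0.05, and of 6 pentose phosphate genes 0 passed, with 2 higher and 0 lower. Of 12 amino acid response genes, 6 were higher and 0 lower, against 1.85% of all genes higher. CHAC1, among the 6, was detected on 0 MEG3-ON and 5 MEG3-OFF arrays and entered the test only through MEG3-OFF.

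The further HIF targets were also read within MEG3-ON. MEG3-ON 4 was the highest array for 14 of 23 (60.9%, against 25.6% of all genes) and MEG3-ON 3 the lowest for 10 of 23 (43.5%, against 23.7%). Their median SD in MEG3-ON was 0.28, between those of the 12 other HIF targets and of all genes. Genes of pyruvate dehydrogenase and the citric acid cycle had a median SD of 0.13 there. MEG3-ON 4 was the highest array for 2 of these 22 genes (9.09%, against 25.6% of all genes). It was above the mean of the other MEG3-ON arrays for 8 of 22 (36.4%, against 46.9% of all genes).

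H9 cells were then compared with MEG3-OFF sublines, since both are labelled MEG3-OFF but come from different hESC lines. Of the 33 genes, 14 passed, 2 higher and 12 lower in H9; this is 42.4%, against 31.4% of all 11583 genes tested (18.2% of all genes were lower and 13.2% higher). Arrays did not overlap for 20 of the 33 genes, 17 lower and 3 higher in H9, against 44.3% of all genes (25.4% lower and 18.9% higher). The median difference was -0.41 for these genes and -0.07 for all genes. H9 had 2 arrays. With 1 of them left out the lone H9 array is assumed to vary like the arrays of the other groups: without H9 replicate 2, 0 of the 33 genes and 500 genes in all passed, and without H9 replicate 1 the count was 13. Without H9 replicate 2 the differences were -0.89 for SLC2A1, -0.66 for VEGFA and 0.47 for LDHB, close to those of both arrays, while ALDOA came to -0.49 and PGAM1 to -0.19, against -0.94 and -0.45 with both. With arrays scaled to equal medians in place of quantile normalization, 10 of the 33 genes passed, 8 of them lower (HK1, GPI, PGAM1 and SLC2A3 no longer passed, at adjusted p of 0.138, 0.0597, 0.0644 and 0.063), and 30.3% of all calls were higher in H9, against 42% in the quantile-normalized values. The MEG3-OFF arrays are the same as in the comparison above.

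Both glucose transporters and PFKFB4 were lower in H9. SLC2A1 was at 10.81 and 10.78 in H9, against 12.04, 11.62, 11.61, 11.76 and 11.47 in MEG3-OFF 5 to 9, with both H9 arrays below all others (-0.91 ± 0.19, 1.87-fold, adjusted p = 0.00463). SLC2A3 was at 13.95 and 13.70 in H9 and 14.05 to 14.32 in MEG3-OFF (-0.42 ± 0.13, adjusted p = 0.0282). PFKFB4 was at 9.10 and 8.69 in H9, against 9.56 to 10.21 in MEG3-OFF (-0.93 ± 0.23, 1.91-fold, adjusted p = 0.00964). All 5 regulators and transporters tested had a lower mean in H9, with a median of -0.58. The 3 that passed were 60% of the role, against 31.4% of all genes. PFKFB3 (-0.44 ± 0.25) and PDK3 (-0.58 ± 0.21, limma, adjusted p = 0.0547) did not pass.

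Of the 16 enzymes, 7 were lower and 1 higher in H9 (50% called, against 31.4% of all genes). ALDOA, the main aldolase, was at 12.56 and 11.67 in H9, against 13.15, 12.83, 13.11, 13.13 and 13.05 in MEG3-OFF (-0.94 ± 0.20, 1.91-fold, adjusted p = 0.0052). The H9 arrays lay 0.89 apart, a wider gap than among all MEG3-OFF arrays, and a second probe detected on all 12 arrays differed by -0.63. PFKL was at 8.33 and 8.05 in H9 and 8.63 to 8.93 in MEG3-OFF (-0.61 ± 0.16, adjusted p = 0.0109). The other 5 lower enzymes were PKM, PFKP, PGAM1, HK1 and GPI, with log2 differences of -0.53 to -0.41. GAPDH was at 14.68 and 14.20 in H9 and 14.48 to 14.79 in MEG3-OFF (-0.19 ± 0.15, adjusted p = 0.328).

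Both lactate dehydrogenases had a higher mean in H9, and LDHB passed the test. LDHB was at 13.81 and 13.90 in H9, against 13.44, 13.38, 13.39, 13.21 and 13.29 in MEG3-OFF, with no overlap (0.52 ± 0.13, 1.43-fold, adjusted p = 0.0105). LDHA was at 13.91 and 13.95 in H9, against 12.73 to 13.92 in MEG3-OFF, and its difference of 0.71 ± 0.30 did not pass (adjusted p = 0.0809). LDHC, the testis form of the enzyme and 1 of the further glycolysis genes, was at 7.18 and 7.05 in H9. It was not well above background on any MEG3-OFF array, which puts H9 at least 2.41-fold higher. The bound takes, on each dim array, the lowest signal among detected probes or the probe's own signal where that was higher. LDHC was detected on 0 MEG3-ON arrays too, so it entered the test only through H9, and its p-value is not given.

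The other HIF targets had no common direction in H9, with 1 of 12 higher and 2 lower (25% called, against 31.4% of all genes). P4HA1 was at 8.88 and 9.58 in H9, against 7.99, 8.28, 8.01, 8.20 and 7.34 in MEG3-OFF (1.26 ± 0.36, 2.4-fold, adjusted p = 0.0172). DDIT4 was at 10.17 and 10.50 in H9, against 11.12, 11.39, 10.92, 12.49 and 11.59 in MEG3-OFF (-1.17 ± 0.39, 2.25-fold, adjusted p = 0.0359); the call was lost with no detection filter (adjusted p = 0.0822) and with a trended, robust fit (adjusted p = 0.0854). VEGFA was at 6.79 and 6.80 in H9, against 7.28 to 7.66 in MEG3-OFF (-0.66 ± 0.16, adjusted p = 0.00892). ADM was at 12.34 and 12.70 in H9 and 13.13 to 14.25 in MEG3-OFF, and with -1.19 ± 0.44 it just missed the threshold (adjusted p = 0.0513).

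The lists outside the 38 genes are to be read beside 13.2% of all genes called higher and 18.2% lower in H9. Of 11 HIF pathway genes, 1 was higher and 3 lower. ARNT, the partner of the HIF alpha subunits, was not well above background on either H9 array, against 5.97 ± 0.16 in MEG3-OFF with 4 of 5 arrays detected, at least 1.14-fold lower in H9 (adjusted p = 9.94e-04), and CITED2, a HIF target that competes for its coactivators, was at 10.22 and 9.64 in H9 and 11.17 ± 0.09 in MEG3-OFF (adjusted p = 7.41e-04). Of 22 genes of pyruvate dehydrogenase and the citric acid cycle, 6 were higher and 3 lower in H9, with a median of 0.18. Of 23 further HIF targets 2 were higher and 5 lower, of 13 further glycolysis genes 2 were higher and 1 lower, and of 6 pentose phosphate genes 1 was higher and 2 lower. LDHC, which entered the test only through H9, was among the higher glycolysis genes.

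**Figure D4:**
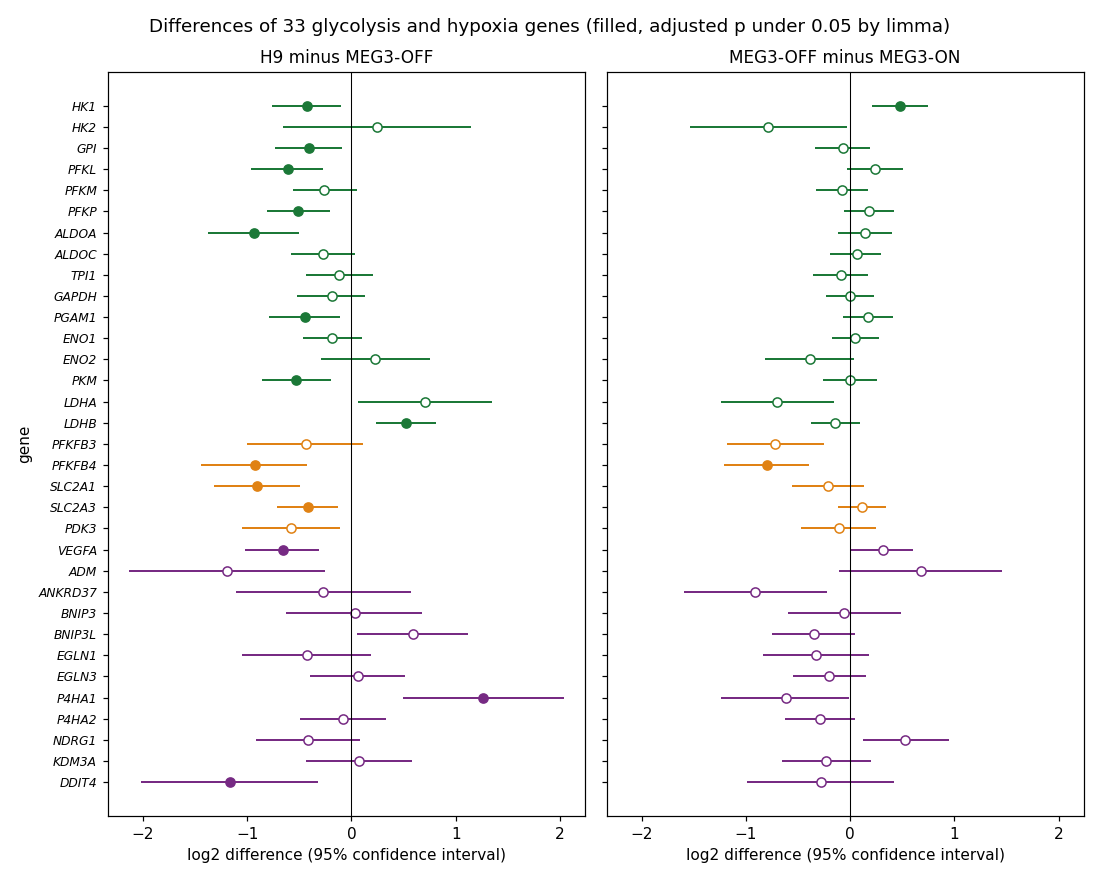
Log2 differences with 95% confidence intervals for 33 genes, H9 minus MEG3-OFF on the left and MEG3-OFF minus MEG3-ON on the right, filled where limma's adjusted p was under 0.05. 14 genes are filled in the left panel and 2, HK1 and PFKFB4, in the right.

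The EB was set against the mean of the 4 MEG3-ON arrays to see the genes in differentiated cells; with 1 array no test was made. A gene was read where the EB or 2 or more of the MEG3-ON arrays detected it, which held for 34 of the 38. Of these, 5 differed by more than 2-fold in measured level, 1 higher and 4 lower, which is 14.7%, against 16.8% of all 11763 genes (9.09% higher and 7.75% lower). The 1 higher gene, MXI1, was read only because the EB detected it. With detection required on every array of the comparison, 4 differed, 0 higher and 4 lower, beside 1280 of all 9608 genes. The MEG3-ON arrays are those of the first comparison. The EB lay outside the range of the MEG3-ON arrays for 24 of the 34 genes, 8 above and 16 below, against 72.6% of all genes (38.1% above and 34.4% below). Both total shares were close to the background. By direction, 16 of the 34 genes (47.1%) lay below all MEG3-ON arrays, against 34.4% of all genes, and 8 lay above, against 38.1%. The direction was not tested.

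ADM was at 10.90 in the EB, against 13.30, 13.78, 11.72 and 13.35 in MEG3-ON, a difference of -2.14. ANKRD37 was at 6.03 in the EB, against 7.00 to 8.53 in MEG3-ON (-1.65), HK2 at 8.53 in the EB, against 9.20 to 10.65 in MEG3-ON (-1.42), and ALDOC, the aldolase of brain, at 9.92 in the EB, against 10.90 to 11.17 in MEG3-ON (-1.17). GPI (-0.93) and PFKP (-0.85) were the next lowest. A second HK2 probe detected on all 12 arrays differed by -0.74, short of 2-fold. Of the 16 enzymes, 10 lay below all MEG3-ON arrays (62.5%, against 34.4% of all genes) and 3 above (against 38.1% of all genes). This direction was not tested.

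MXI1 was at 6.28 in the EB and not well above background on the MEG3-ON arrays, which puts the EB at least 1.36-fold higher; it counted among the 5 by its measured levels. NDRG1 was at 6.91 in the EB and 5.42 to 6.48 in MEG3-ON (0.84), VEGFA at 7.94 in the EB and 6.79 to 7.33 in MEG3-ON (0.79), and PFKFB3 at 11.35 in the EB and 10.29 to 11.30 in MEG3-ON (0.55). BNIP3L (0.48) lay within the MEG3-ON arrays and PFKM (0.39) above them. Second probes detected on all 12 arrays differed by 0.10 for PFKFB3 and 0.85 for BNIP3L. LDHA was at 13.66 in the EB and a mean of 13.92 in MEG3-ON, GAPDH at 14.57 in the EB and 14.64 in MEG3-ON, LDHB at 12.94 in the EB and 13.49 in MEG3-ON, PKM at 11.04 in the EB and 10.82 in MEG3-ON, DDIT4 at 11.02 in the EB and 11.79 in MEG3-ON, and EGLN3 at 7.33 in the EB and 8.08 in MEG3-ON. The role means of the EB, set against the 11 undifferentiated arrays, were 0.45 for regulators and transporters, -0.31 for enzymes and -0.18 for other HIF targets. EPAS1, the HIF-2 alpha subunit and no member of the 38, was at 7.33 in the EB and not well above background on any of the 4 MEG3-ON arrays, at least 2.81-fold higher in the EB. Past 2-fold in the EB were 2 of 23 further HIF targets, both higher, and 1 of 13 further glycolysis genes, higher. Among both the 6 pentose phosphate genes and the 22 genes of pyruvate dehydrogenase and the citric acid cycle, 1 was higher and 1 lower. Of all genes, 9.09% were past 2-fold higher and 7.75% lower.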

How the data were processed

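Total RNA of 12 samples was hybridized to Illumina HumanHT-12 arrays. Before any background subtraction or scaling, each probe has an intensity per array in the scanner values the authors deposited, with a detection p-value, likewise deposited. The authors' processed intensity values, log transformed and quantile normalized in Partek, served as an alternative (the series matrix). Here neqc of limma 3.58.1 (offset 16, R 4.3.3) subtracted background estimated through the detection p-values, applied quantile normalization and gave log2 values; 1 deposited signal was 0. Figures used Python 3.11.15 and matplotlib 3.10.9. Of 47230 probes, 30113 had 1 gene symbol, 8 several and 17109 none, and 30074 were matched by Entrez ID to RefSeq of GRCh38.p14. Each gene was read by the probe with the highest mean over the 12 arrays; 18 of the 36 genes had several probes, 12 of these had several detected on all arrays, and their signs differed for 2 genes in MEG3-OFF against MEG3-ON, 2 in H9 and 0 in the EB.

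Tests were limma fits (lmFit and eBayes) with Benjamini-Hochberg adjustment over all genes: MEG3-OFF against MEG3-ON over the 9 NTU1 arrays (genes detected on at least 4), and H9 against MEG3-OFF in a fit of 11 arrays in 3 groups (genes detected on at least 2). The EB had no test. The test was checked on simulated data. Alternatives were the series matrix, median scaling, no background correction, no or a stricter detection filter, the mean over detected probes, eBayes with trend and robust, 3 groups in one fit, the methods' t-test, and leaving out each array.

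The 38 genes and the other lists were chosen with earlier results of these data known. Values are given in full for genes called or not overlapping in MEG3-OFF against MEG3-ON, the 3 genes of each role with the largest difference there, 10 genes fixed by name (CA9 and PDK1 among them), the 8 called genes with the largest difference in H9 and the 6 highest and 6 lowest differences in the EB; other lists are given by counts and at most 3 called genes, except that HIF1A and PGK1 were named after their values were seen.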

Additional observations from a re-analysis of the deposited data

Results flagged for a closer look

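In 2 of 70 groups of 4 or 5 arrays checked, 1 array stood far from the others, where chance gives about 1 in 20. ALDOC was lowest on MEG3-ON 2, at 10.90 with the next array at 11.12. ANKRD37 was highest on MEG3-OFF 8, at 7.62 with the next array at 6.64.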

How the results depend on the processing

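No paired analysis was possible because the groups compared share fewer than 2 replicate numbers in the labels. For MEG3-OFF against MEG3-ON, the count of 2 genes called became 1 with median scaling (HK1, 409 of all genes called), 1 with the mean over detected probes (PFKFB4), 0 with no detection filter, where 20046 genes were tested, and 0 with the methods' t-test after Benjamini-Hochberg (32 of all genes, against 386); at the methods' own threshold (p under 0.05 and over 1.5-fold) that test called 2, PFKFB3 and PFKFB4. Leaving out 1 array gave 0 to 5 (5 without MEG3-OFF 5; 0 without MEG3-ON 1, 2 or 4 or MEG3-OFF 6, 7 or 9) and 108 to 997 among all genes. Without H9 replicate 2, where the lone H9 array is assumed to vary like the other groups, 0 of the 14 calls in H9 against MEG3-OFF were made, while over all settings SLC2A1 stayed between -0.96 and -0.82 and LDHB between 0.47 and 0.56; leaving out 1 array gave 0 to 16, and all genes called numbered 500 without H9 replicate 2, against 3642. In the EB the count stayed at 4 or 5, while all genes past 2-fold numbered 1100 in the series matrix, 1099 without background correction and 1280 with detection on every array, against 1981. Of 296 differences between MEG3-OFF and MEG3-ON under other settings 285 kept direction and side of the threshold, 6 lost the call and 5 turned: GPI to 0.00 and BNIP3 to 0.03 with median scaling, and PKM to 0.00 in the series matrix, 0.00 without background correction and -0.01 with the mean over probes. Of 229 such differences in H9, 216 kept both, 6 lost and 7 gained the call, and 0 turned. Leaving out 1 array turned 15 of 297 and 6 of 363: over all arrays left out, ALDOC ranged from -0.01 to 0.09, GAPDH from -0.04 to 0.04, PKM from -0.07 to 0.08, PDK3 from -0.19 to 0.03, BNIP3 from -0.29 to 0.18 and DDIT4 from -0.53 to 0.03 between the NTU1 groups, and GAPDH from -0.44 to 0.05, BNIP3 from -0.14 to 0.20, EGLN3 from -0.21 to 0.32 and P4HA2 from -0.16 to 0.00 in H9. The cause was not tested.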
